A study of Sus scrofa with 8 samples.

Results

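The genes described here are 9 regulators of the pluripotent state, POU5F1, NANOG, SOX2, KLF4, LIN28A, SALL4, PRDM14, ESRRB and TFCP2L1, read in pig embryonic fibroblasts (PEFs), which are differentiated cells. All gene records with these 9 symbols were taken from the RefSeq annotation of the Sscrofa11.1 assembly. NANOG has a record on chromosome 5 and another on chromosome 1, so that 10 records of 28077 in all, and of 19487 protein-coding ones, were examined. Peaks were read at 3 scales, which are the 1 kb on each side of the start of the record (the transcription start site, TSS), the record itself, and the 100 kb on each side of the TSS.

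PEFs were obtained from Large White fetuses of 35 days and kept in culture for 24 hours, without any treatment. ChIP-seq, in which DNA bound to a protein is pulled down with an antibody and sequenced, was carried out for H3K4me3, H3K27ac and CTCF with 2 replicates each. The number of animals behind the replicates is not given in the sources used here, so that the spread between replicates may be technical. The 6 peak lists held between 37932 and 81164 peaks, and give no read counts, so that the depth at each peak is unknown. H3K4me3 folds were lower in replicate 2, with a median over all peaks of 6.16 against 9.27 in replicate 1, and values are therefore given for each replicate. There is 1 cell type and no second condition, so no statistical test was run and the values below are a description.

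In pluripotent cells, POU5F1 (also called OCT4), SOX2 and NANOG bind many of the same enhancers and sustain each other, and POU5F1, SOX2 and KLF4 are among the factors used to reprogram fibroblasts. H3K4me3 marks promoters, mostly those rich in CpG dinucleotides, whether or not the gene is transcribed strongly, whereas H3K27ac marks promoters and enhancers in use. CTCF is a DNA-binding protein that holds chromatin loops and boundaries through an asymmetric motif.

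A TSS was called active with both histone marks in both replicates, H3K4me3 only with that mark in both replicates and H3K27ac in neither, silent with no peak of either mark, and mixed otherwise. These names describe peaks, since transcription was not measured here. Of the 10 records, KLF4 was the 1 active record, against 58.9% of protein-coding records. LIN28A, SALL4 and PRDM14 were the 3 with H3K4me3 only, against 8.25%. POU5F1, both NANOG records and ESRRB were the 4 silent ones, against 27.5%. SOX2 and TFCP2L1 were the 2 mixed ones, against 5.33%. Each of these 2 had H3K4me3 in both replicates and a weak H3K27ac peak in replicate 2. H3K4me3 in both replicates with H3K27ac in either 1 of them, at any strength, was found at 1.74% of protein-coding records. H3K4me3 was thus in both replicates at 6 of the 10 starts, near the 68.9% of protein-coding records, and H3K27ac at 1 of 10, against 60.7%. TFCP2L1 was the 1 record with CTCF at its TSS in both replicates, against 17.9%.

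**Figure D1:**
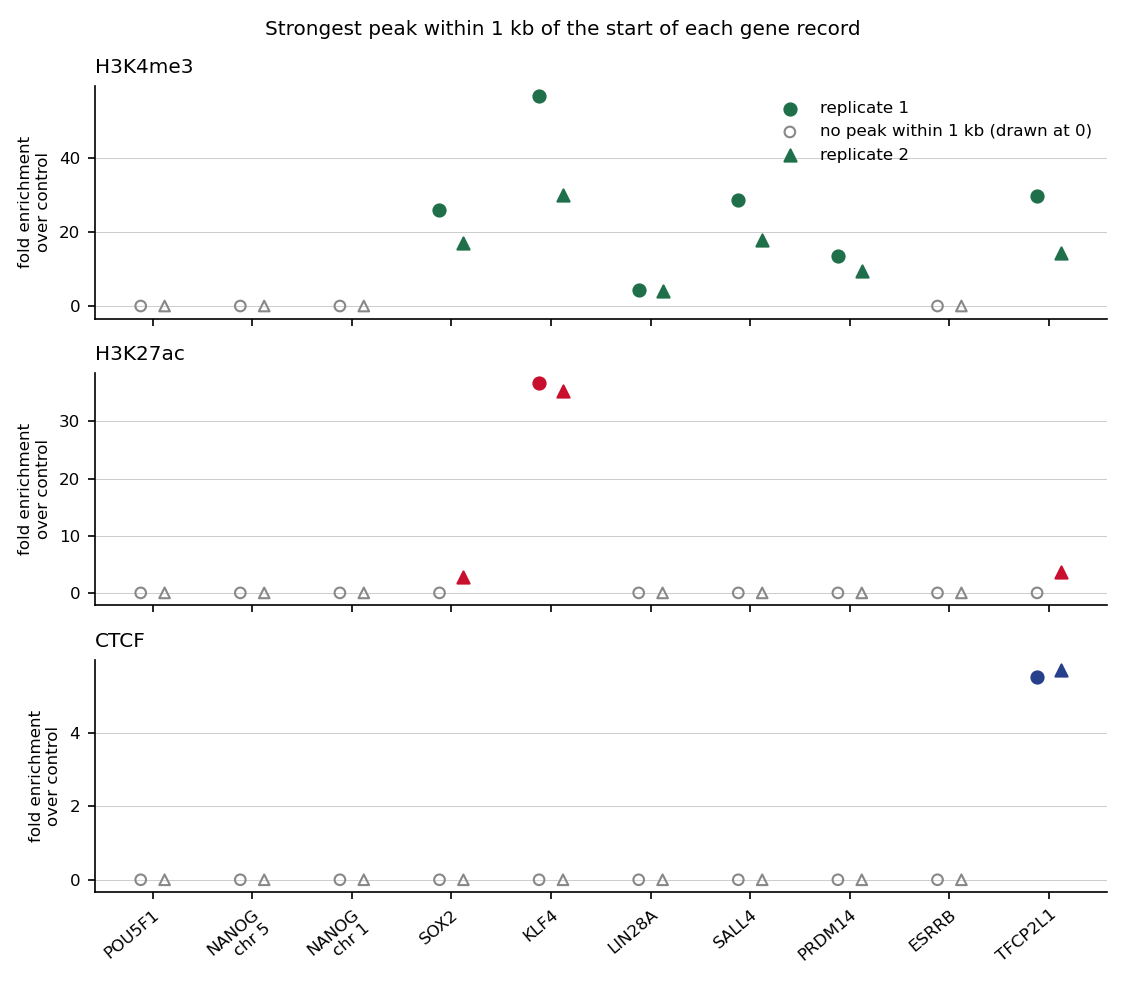
Fold enrichment over control (linear axis) of the strongest peak within 1 kb of the TSS of the 10 records, in 3 panels for H3K4me3, H3K27ac and CTCF. Circles are replicate 1, triangles are replicate 2, and open symbols at 0 mean that no peak was listed; KLF4 is the 1 record with both histone marks in both replicates.

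The identity of the cells was read from markers in the same way. All 17 fibroblast genes found, among them THY1, TWIST1, SNAI2 and LOX, were active, against 58.9% of protein-coding records. None of 4 myogenic factors and 1 of 10 neural bHLH factors (NEUROG2) was active. Of the myogenic factors, MYOG had H3K27ac (7.06 and 5.26) in both replicates without H3K4me3, and was mixed. Epithelial genes were active in 2 of 7 (CLDN7 and CLDN4), hepatic genes in 1 of 6 (FOXA3), and endothelial and blood genes in 0 of 8. Of the endothelial and blood genes, CDH5, GATA1, PECAM1, PTPRC and TEK had no histone peak at their TSS, whereas KDR (25.4 and 13.3) and CD34 (19.4 and 15.3) had H3K4me3 and SPI1 had H3K27ac (12.4 and 17.0) in both replicates. Of the hepatic genes, AFP, ALB, APOB and TTR had none, and HNF4A had H3K4me3 of 2.96 in replicate 2 only.

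The starts of the members differ in sequence. The 200 bases before the record start are shown for a silent core factor (POU5F1), a silent factor whose start lies in repeats (NANOG on chromosome 5), the active record (KLF4) and a record with H3K4me3 and CTCF (TFCP2L1). They are read 5′ to 3′ along the gene on Sscrofa11.1, with CG dinucleotides in capitals.
POU5F1, chr7:23570692-23570891, minus strand: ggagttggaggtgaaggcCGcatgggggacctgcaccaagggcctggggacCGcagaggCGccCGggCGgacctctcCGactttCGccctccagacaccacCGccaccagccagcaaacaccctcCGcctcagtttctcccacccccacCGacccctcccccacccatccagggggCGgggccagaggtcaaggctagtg
NANOG, chr5:62931442-62931641, plus strand: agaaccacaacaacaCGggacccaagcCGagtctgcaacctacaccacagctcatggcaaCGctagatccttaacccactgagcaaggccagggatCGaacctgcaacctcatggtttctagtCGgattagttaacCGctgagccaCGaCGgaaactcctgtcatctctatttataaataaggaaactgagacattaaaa
KLF4, chr1:248609575-248609774, minus strand: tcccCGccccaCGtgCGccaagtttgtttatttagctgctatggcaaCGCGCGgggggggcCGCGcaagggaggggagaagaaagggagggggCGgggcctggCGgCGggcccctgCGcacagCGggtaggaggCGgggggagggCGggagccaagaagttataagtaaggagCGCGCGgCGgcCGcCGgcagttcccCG
TFCP2L1, chr15:30071942-30072141, plus strand: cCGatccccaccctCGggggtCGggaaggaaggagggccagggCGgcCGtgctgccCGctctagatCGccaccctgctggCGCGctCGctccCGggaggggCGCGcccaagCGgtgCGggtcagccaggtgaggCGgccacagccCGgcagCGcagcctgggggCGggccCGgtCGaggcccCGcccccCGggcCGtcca
These stretches hold 11 CG dinucleotides for POU5F1, 8 for NANOG, 22 for KLF4 and 24 for TFCP2L1. In the NANOG stretch 97% of bases are masked as repeats in the assembly, against 28.5% for POU5F1, 26% for KLF4 and 0% for TFCP2L1.

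POU5F1, the homeodomain factor at the centre of the network, lies at chr7:23564654-23570691 on the minus strand. No H3K4me3, H3K27ac or CTCF peak was listed in the record in either replicate. An H3K27ac peak lay just outside the 1 kb limit, with its near edge at -1220 bp in replicate 1 and -1037 bp in replicate 2. Its fold enrichment was 4.48 and 5.59 (−log10 q of 10.2 and 13.3), or 5.04 ± 0.787 (SD, n = 2), with summits at -2104 and -1944 bp. The nearest H3K4me3 edge was 10453 bp from the TSS in replicate 1 and 10292 bp in replicate 2. A CTCF peak lay between this H3K27ac peak and the next genes upstream, at -4738 and -4745 bp, with fold enrichments of 23.6 and 30.8. The 200 bases around the H3K27ac summit of replicate 1, with 5 CG dinucleotides in capitals, are shown because this was the 1 histone peak within 10 kb of the TSS seen in both replicates.
POU5F1, chr7:23572695-23572894, minus strand: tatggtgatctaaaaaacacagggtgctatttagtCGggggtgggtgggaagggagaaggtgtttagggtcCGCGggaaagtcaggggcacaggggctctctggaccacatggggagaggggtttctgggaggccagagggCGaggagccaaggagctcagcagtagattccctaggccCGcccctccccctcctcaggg

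The surroundings of POU5F1 are dense in marks. There were 10 and 10 H3K4me3 peaks and 17 and 17 H3K27ac peaks within 100 kb in replicates 1 and 2. Of the 16 other gene starts in that window 10 were active, 1 was mixed and 5 were silent. These 16 include genes that are not protein-coding, and of protein-coding records alone 58.9% were active. The adjacent TCF19, a nuclear protein gene, starts 12365 bp away, and its H3K4me3 fold enrichment was 61.2 and 26.4 with H3K27ac at 13.9 and 15.3. The MHC class I genes SLA-6, SLA-7 and SLA-8 were also active. In the 1 kb on each side of the TSS of POU5F1, 100% of the 31-base words occur 1 time in the assembly, and in the record 89.6% do. The part of mappability in the absence of peaks was not tested.

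NANOG, a homeodomain factor, has its multi-exon record at chr5:62931642-62939086 on the plus strand. Neither replicate listed a peak of H3K4me3, H3K27ac or CTCF in it. The nearest H3K4me3 peak seen in both replicates had summits at -17331 and -17306 bp and fold enrichments of 33.4 and 19.5, and H3K27ac lay with it at 8.16 and 11.2. None of the 6 other record starts within 100 kb, counted over genes of any type, was active, against 58.9% of protein-coding records. NANOGNB, the adjacent gene on the lower side, was silent. The widest H3K4me3 peak nearby (6805 and 6281 bp, 53.6 and 33.2) covered an annotated transcript start inside SLC2A3, a glucose transporter gene. H3K27ac peaks in the window numbered 15 and 18. In the 1 kb on each side of the TSS, 44.4% of bases are repeat-masked and 77.5% of 31-base words occur 1 time.

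The other NANOG record is a stretch of 1159 bp with 1 exon at chr1:169064134-169065292, inside THSD4, an extracellular matrix gene whose own TSS, 312731 bp away, was active. It too had no peak. The nearest H3K4me3 summits were at -45553 and -45647 bp. Of the 31-base words around its TSS 14.9% occur 1 time in the assembly and 42.0% occur 2 times, and in the record itself 81.2% occur 2 times. The authors kept uniquely mapped fragments, so that a mark there could be missed, and the part of mappability in the absence of peaks was not tested.

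SOX2, the HMG-box partner of POU5F1, lies at chr13:119668476-119669435 on the plus strand, in a record that holds the coding sequence of 1 exon and starts at the start codon. H3K4me3 covered the start in both replicates, with fold enrichments of 25.8 and 17.1, or 21.4 ± 6.15 (SD, n = 2), and widths of 3699 and 3675 bp. Among the 13423 protein-coding records with H3K4me3 in both replicates, this fold was at percentile 14.9 and the width at percentile 70.9. H3K27ac was absent from replicate 1 and reached 2.77 in replicate 2 (−log10 q of 2.99), with its summit at -1120 bp and its near edge at -948 bp, 52 bp inside the limit.

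SOX2 sat in a cluster of H3K4me3 peaks. There were 9 in replicate 1 and 12 in replicate 2 within 100 kb, all with summits between -16431 and 22773 bp, and all but the one at the TSS away from annotated starts. The mean of 10.5 peaks was higher than in 81.5% of protein-coding records, whereas the mean of 0.5 H3K27ac peaks was higher than in 7.21%. The others with fold enrichments above 10 in both replicates were at -16400 bp (18.7, and 10.7 in replicate 2), at 14478 bp (15.8, and 12.01) and at 22773 bp (15.2, and 11.4). CTCF peaks stood upstream of the gene, at -2592 bp with fold enrichments of 44.8 and 37.0, and at -11604 bp with 55.2 and 46.5. In replicate 1 a separate peak of 55.3 lay at -10055 bp, and the peak of replicate 2 at -11631 bp, 2408 bp wide, spanned both sites. The 1 other gene start within 100 kb, LOC102159599, was silent.

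KLF4, a zinc-finger factor that fibroblasts also use, lies at chr1:248604817-248609574 on the minus strand. Its H3K4me3 fold enrichment at the TSS was 56.5 and 29.8, or 43.2 ± 18.9 (SD, n = 2), and its H3K27ac fold enrichment was 36.6 and 35.3, or 35.97 ± 0.952. For active records the median H3K4me3 fold was 55.5 in replicate 1 and 26.96 in replicate 2. The peaks covered the whole record, at 8086 and 8878 bp for H3K4me3 and 8917 and 8113 bp for H3K27ac. Both widths were high among protein-coding records with the mark at the TSS in both replicates. They were at percentile 97.9 of 13423 such records for H3K4me3 and percentile 94.9 of 11830 for H3K27ac.

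H3K27ac was also found at 4 more sites around KLF4 in both replicates, none at an annotated TSS. The strongest had summits at -45719 and -45741 bp, fold enrichments of 16.4 and 17.7 and a weak H3K4me3 peak of 4.05 and 4.29. The site at 20266 and 20124 bp reached 10.4 and 11.8 for H3K27ac and 14.7 and 8.54 for H3K4me3, and CTCF lay there at 22.6 and 29.5. The remaining sites, at -13572 and 8423 bp, had 6.16 and 7.03 in replicate 1 and 6.82 and 6.58 in replicate 2. KLF4 was alone in its window, with no other gene start within 100 kb.

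**Figure D2:**
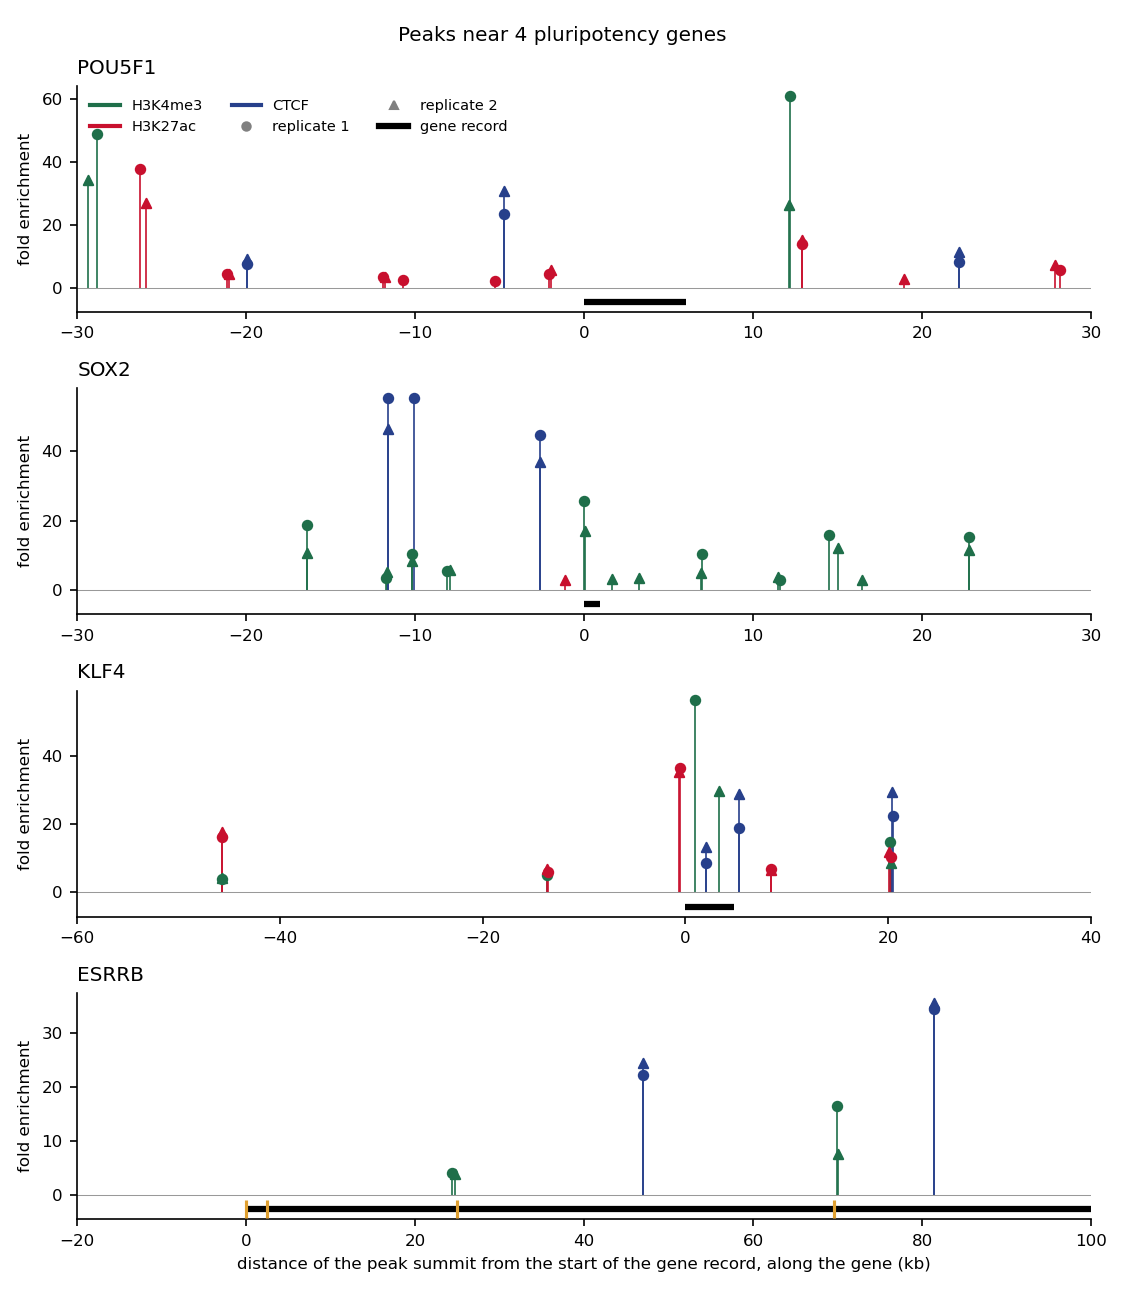
Fold enrichment (linear axis, height of the stems) of peaks against the distance of their summits from the TSS along the gene, in kb, for POU5F1, SOX2, KLF4 and ESRRB. Circles are replicate 1, triangles replicate 2, black bars the gene records and yellow ticks the transcript starts of ESRRB; SOX2 is surrounded by H3K4me3 and KLF4 by H3K27ac, and ESRRB has no H3K27ac peak in view.

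LIN28A, an RNA-binding protein that blocks maturation of let-7 microRNAs, lies at chr6:83806178-83818550 on the plus strand, and its record begins at the start codon. Its H3K4me3 peak was the weakest of the 6 marked starts, with fold enrichments of 4.37 and 3.94, or 4.16 ± 0.301 (SD, n = 2), widths of 899 and 1002 bp and summits at 685 and 658 bp. This fold was at percentile 0.67 among the 13423 protein-coding records with H3K4me3 at the TSS in both replicates. No H3K27ac was listed in the record. Of the 7 other gene starts of any type within 100 kb 4 were active and 3, among them the adjacent ZNF683, were silent. Of protein-coding records 58.9% were active and 27.5% silent. The H3K4me3 fold of the adjacent DHDDS, an enzyme of dolichol synthesis 17084 bp away, was 45.7 and 18.5 and that of HMGN2, a nucleosome-binding protein gene, was 62.6 and 41.4.

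SALL4, a zinc-finger factor of stem and germ cells, lies at chr17:53082610-53103023 on the minus strand, and its record begins at the start codon. Its H3K4me3 fold enrichments were 28.5 and 17.8, or 23.1 ± 7.59 (SD, n = 2), and the summits were in an intron at 1075 and 1492 bp, towards a second annotated transcript start at 1871 bp. An H3K27ac peak of 2.74 in replicate 1 began at 1004 bp, 4 bp beyond the limit, and replicate 2 had none. Of its surroundings, the TSS of ATP9A, an ATPase gene 30403 bp away, was active.

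PRDM14, a PR-domain factor of the germline and of naive cells, lies at chr4:65273988-65295362 on the plus strand, and its record starts 15 bp before the start codon. Its H3K4me3 fold enrichments were 13.4 and 9.47, or 11.4 ± 2.79 (SD, n = 2), widths were 3578 and 3768 bp, and the summits were upstream at -1394 and -1241 bp. For records with H3K4me3 only the median fold was 20.6 and 11.4 in replicates 1 and 2, so that SALL4 lay above these medians, and PRDM14 and LIN28A below. The nearest H3K27ac peaks were inside NCOA2, at -65460 and -65347 bp. A stronger H3K4me3 peak of 36.1 and 28.1 stood at 38660 and 38751 bp, past the end of the record and at no annotated start.

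The 200 bases around the H3K4me3 summit of replicate 1 are shown for SALL4 and PRDM14, since there the mark peaked away from the record start. They are read along the gene with CG dinucleotides in capitals, 24 in SALL4 and 25 in PRDM14.
SALL4, chr17:53101848-53102047, minus strand: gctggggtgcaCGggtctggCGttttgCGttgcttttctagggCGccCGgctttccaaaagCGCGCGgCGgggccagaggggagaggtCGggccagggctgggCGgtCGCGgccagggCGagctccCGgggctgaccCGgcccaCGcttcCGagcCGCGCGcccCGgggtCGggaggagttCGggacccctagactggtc
PRDM14, chr4:65272494-65272693, plus strand: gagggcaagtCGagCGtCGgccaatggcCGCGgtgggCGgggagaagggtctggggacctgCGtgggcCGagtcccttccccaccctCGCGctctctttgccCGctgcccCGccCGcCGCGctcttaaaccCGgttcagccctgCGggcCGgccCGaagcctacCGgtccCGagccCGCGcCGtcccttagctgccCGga
Neither stretch has a repeat-masked base. Over the whole peak of replicate 1 there were 64.7 CG dinucleotides per kb in SALL4, 78.5 in PRDM14, 69.0 in LIN28A, 79.5 in TFCP2L1, 50.3 in SOX2 and 48.7 in KLF4.

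ESRRB, an orphan nuclear receptor of naive pluripotent cells, has a record of 188344 bp at chr7:99511135-99699478 on the plus strand with 4 transcript starts. The record start and the start at 2448 bp had no peak. The start at 24925 bp had weak H3K4me3, at 4.10 and 3.94, and the start at 69560 bp had 16.6 and 7.58. H3K27ac was absent from the record and from the whole window in both replicates (0 and 0 peaks), a count that 7.21% of protein-coding records share. By the TSS rule ESRRB is silent, and by its internal starts it carries H3K4me3 without H3K27ac.

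TFCP2L1, a grainyhead-type factor of naive cells, lies at chr15:30072142-30131810 on the plus strand. Its H3K4me3 fold enrichments were 29.7 and 14.3, or 22.0 ± 10.9 (SD, n = 2), with widths of 1534 and 1880 bp. That peak was the 1 H3K4me3 peak within 100 kb. H3K27ac at the TSS was absent in replicate 1 and 3.67 in replicate 2 (−log10 q of 4.997). An intron held H3K27ac in both replicates, with summits at 36959 and 36957 bp and fold enrichments of 3.98 and 3.78. The flanking genes CLASP1 and GLI2 were active at starts 289529 and 508130 bp away.

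**Figure D3:**
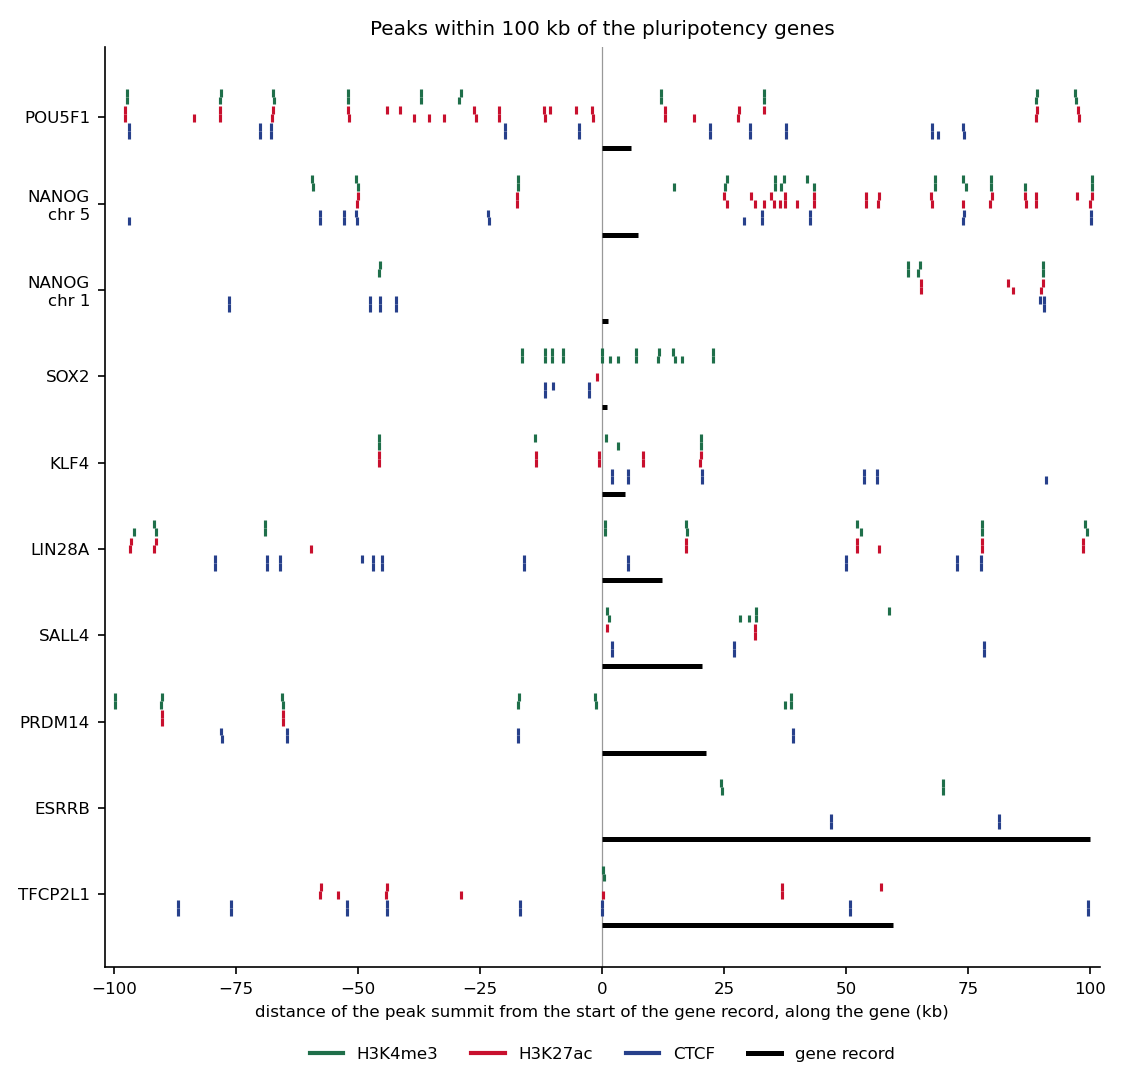
Peak summits within 100 kb of the TSS of the 10 records, as distance along the gene in kb. In each record the upper row of ticks of a colour is replicate 1 and the lower is replicate 2, and black bars are gene records; POU5F1 and NANOG on chromosome 5 have many H3K27ac peaks around a record with none.

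Over the 10 windows, the mean of the replicates summed to 60.5 H3K4me3, 57.5 H3K27ac and 60.5 CTCF peaks. Within the records the sums were 8, 3.5 and 7. The median protein-coding record had 5.5 H3K4me3 and 9 H3K27ac peaks within 100 kb. Above the H3K27ac median were POU5F1 (17) and NANOG on chromosome 5 (16.5), both silent. Below it were LIN28A (7), KLF4 (5), TFCP2L1 (5), NANOG on chromosome 1 (3), PRDM14 (2), SALL4 (1.5), SOX2 (0.5) and ESRRB (0). The active KLF4 thus had fewer than both of those silent records. Around POU5F1, 10 of the 16 other gene starts of any type were active, against 58.9% of protein-coding records. Over all protein-coding records the median was 11.5 for active, 10.5 for mixed, 4 for H3K4me3 only and 4 for silent records. With 1 active record, the members cannot show whether the number goes with the state.

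CpG content at the start was set beside that of all records of the same state. KLF4 had 119 CG dinucleotides in the 500 bases on each side of the TSS, TFCP2L1 89 and SOX2 82, against medians of 70 for active and 25 for mixed records. SOX2 and TFCP2L1, both mixed, thus lay above the upper quartile of mixed records (48). Mixed is a remainder class, and 339 of its 1038 records share their pattern of H3K4me3 in both replicates and H3K27ac in 1. Both lay within the quartiles of active records (52 to 92) and of records with H3K4me3 only (39.75 to 92). PRDM14 had 63, SALL4 56 and LIN28A 39, against 65 for records with H3K4me3 only. The records of SOX2, SALL4 and LIN28A begin at the start codon, so that these bases may not be their promoters. ESRRB had 15, NANOG on chromosome 5 had 19 and NANOG on chromosome 1 had 6, against 15 for silent records. POU5F1, with 64, lay above the upper quartile of silent records (25) and near the medians of active records and of records with H3K4me3 only.

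**Figure D4:**
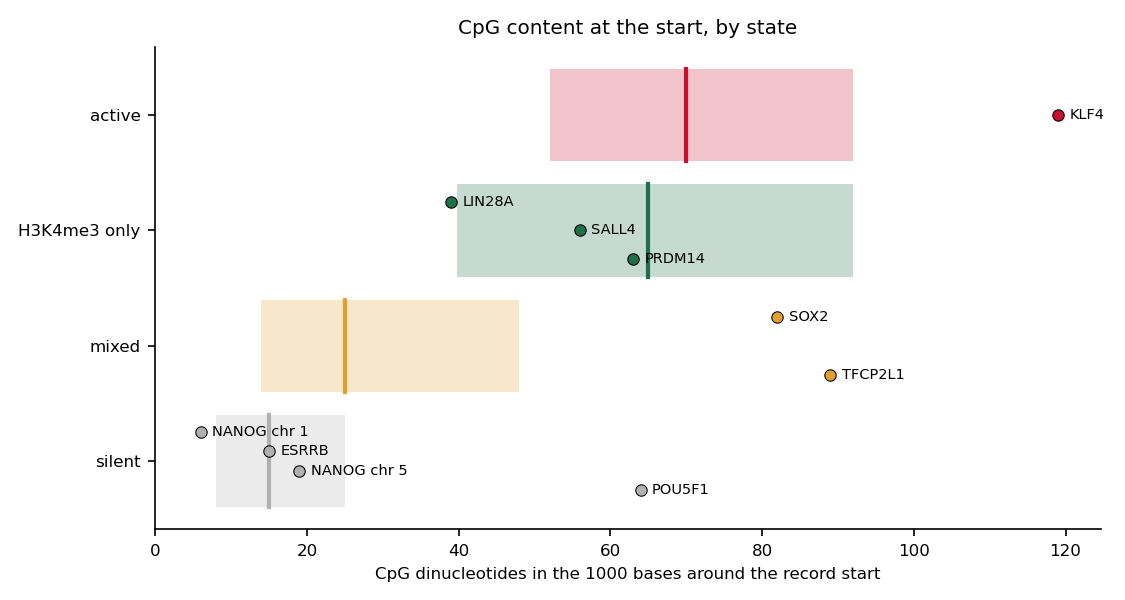
Number of CG dinucleotides in the 1000 bases around the TSS of the 10 records, by state. Bands run from the lower to the upper quartile of all protein-coding records of that state and the line in each is their median; POU5F1, at 64, is outside the band of silent records.

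Letters of common promoter elements were searched on both strands from 250 bases before to 50 after each TSS. The GC box GGGCGG was in 6 of the 10 records (all but SALL4, ESRRB and the NANOG records) and in 50.7% of all protein-coding ones. At later annotated starts it was found in SALL4 (1871 bp, 1 match) and ESRRB (24925 bp, 4 matches). The records of SOX2, LIN28A and SALL4 begin at the start codon, so that their windows may not be the promoters. CCAAT was in 5 and in 35.3% of all, TATAAA in 2 (NANOG on chromosome 5 and ESRRB) and in 10.8% of all, and the octamer ATTTGCAT in 0 and in 1.39% of all. These matches describe letters, not bound sites.

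CTCF was found inside 5 of the records in both replicates, namely KLF4, LIN28A, SALL4, ESRRB and TFCP2L1, against 49.8% of protein-coding records. The count depends on length, which runs from 960 to 188344 bp among the members, with a median of 20695 bp over protein-coding records. A motif of 19 bases learned from 600 CTCF peaks on chromosomes without members was present in 87.7% and 86.4% of the peaks on members' chromosomes, and in 9.78% and 9.75% of windows 1 kb away. The sites in the records are printed with the motif in capitals and 5 bases on each side, read along the strand of the motif, because the motif has a direction.
KLF4, chr1:248607521-248607549, minus strand: gtcgcAGCCGCCAGGTGGCGGGCTgatgg
LIN28A, chr6:83811378-83811406, minus strand: gagttCTCCACCAGATGGCGCTGCttatc
SALL4, chr17:53100949-53100977, plus strand: ggctgGGTCTCCAGGGGGCGCCCGcgcgc
ESRRB, chr7:99558067-99558095, minus strand: ctgagAGCCACCAGAGGGCGCCCTggatc
ESRRB, chr7:99592556-99592584, minus strand: atgagGGCCTGCAGGGGGCTCTAGagctc
TFCP2L1, chr15:30072084-30072112, minus strand: gggccCGCCCCCAGGCTGCGCTGCcgggc
TFCP2L1, chr15:30122918-30122946, minus strand: caaccTGCCCACAGGGGGCTCTGTccagg
The KLF4 motif lies on the strand of its gene, and the other 6 on the opposite strand. The strongest of these peaks was in an intron of LIN28A, with fold enrichments of 54.3 and 53.4. The peak in an exon of SALL4, at 2040 and 2066 bp, had 35.1 and 35.9, with its summits inside the H3K4me3 peak. ESRRB had 22.3 and 24.4 at 46964 and 46942 bp, and 34.5 and 35.6 at 81446 and 81426 bp. The KLF4 peak had 8.72 and 13.5. The peaks of TFCP2L1 were the weakest, at 5.51 and 5.71 at the TSS and 5.84 and 5.77 in an intron, and their motifs passed the p of 0.0001 per position but not 0.00001. Over all windows, 53.5 of 60.5 CTCF peaks (mean of replicates) held the motif, 21.5 on the strand of the gene and 32 on the other.

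The wider pluripotency network was read from lists of genes other than the members. Of 26 other network factors 10 were active, 8 had H3K4me3 only, 1 was mixed and 7 were silent. Over all protein-coding records 58.9% were active, 8.25% had H3K4me3 only, 5.33% were mixed and 27.5% were silent. Active ones included STAT3, the transducer of LIF, KLF5, TRIM28 and KLF2. The strongest with H3K4me3 only were MYCN (35.5 and 23.9), FOXD3 (24.9 and 15.5) and SALL3 (24.7 and 13.2). KLF17, NR5A2, SALL2 and TCF7L1 were among the silent ones, and GLIS1 had H3K27ac of 4.08 and 3.82 with no H3K4me3. LIN28B, the paralogue of LIN28A named here after its values were seen, was active, with H3K4me3 of 12.6 and 11.8 and H3K27ac of 4.23 and 3.82.

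Of 12 signalling genes 6 were active, 1 had H3K4me3 only, 1 was mixed and 4 were silent. The shares over protein-coding records were 58.9%, 8.25%, 5.33% and 27.5% in that order. The active ones included the receptors ACVR2B, FGFR1 and IL6ST and the ligand BMP4. FGF4, a ligand of pluripotent cells, had H3K4me3 only, at 5.74 and 4.44. LIF had H3K27ac of 21.3 and 29.6 and no H3K4me3 peak at its record start. NODAL, its co-receptor TDGF1, GDF3 and the inhibitor LEFTY2 were silent.

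Of 16 markers of embryonic stem and germ cells 9 were silent, against 27.5% of protein-coding records. Among them were DAZL, DDX4, DNMT3L and DPPA2. Active were 2, against 58.9% of protein-coding records, namely DNMT3B, a DNA methyltransferase (55.9 and 28.2 for H3K4me3), and TEX14. EPCAM, TFAP2C and ALPL had H3K4me3 only, and PODXL and PRDM1 were mixed. By comparison, 3 of 4 myogenic factors and 8 of 10 neural bHLH factors, which direct other lineages, had H3K4me3 only, as did 5 of 7 epithelial, 2 of 8 endothelial and blood and 0 of 6 hepatic genes, against 3 of the 10 members and 8.25% of protein-coding records. MYOD1 had H3K4me3 of 5.74 and 5.42 and ATOH1 had 31.9 and 19.9. These lists are short and the differences between them were not tested.

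**Figure D5:**
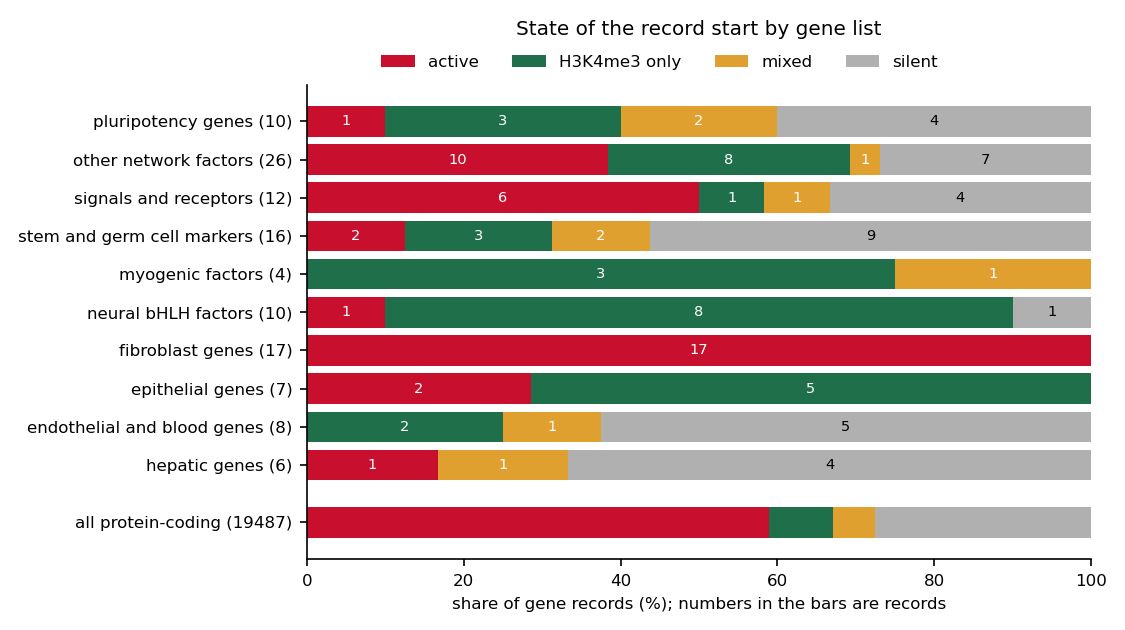
Share of gene records (%) in each TSS state for the 10 member records, 9 other lists and all 19487 protein-coding records, with the number of records written in the bars. The 17 fibroblast genes are all active, and 1 of the 10 member records is.

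The 2 protein-coding records whose 6 fold enrichments at the TSS, as log2(1 + fold), were nearest to those of each marked member were also taken. For KLF4 the nearest was AFF4 (H3K27ac of 36.8 and 37.9), at a distance of 0.10. For SOX2 they were VGF and PRMT8, at 0.10 and 0.18, both mixed through replicate 2. For SALL4 they were DPP10 and CDH12, for PRDM14 LMO1 and LOC100625711, and for TFCP2L1 ZIC5 and SPSB4, the last at the largest distance, 0.72. TMEM176A and MADCAM1 had exactly the values of LIN28A, 4.37 and 3.94, at a distance of 0. Weak peaks thus took repeated values, which limits any ranking among them.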

How the data were processed

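H3K4me3, H3K27ac and CTCF ChIP-seq libraries of untreated PEFs were analysed, with 2 replicates each, grouped by the sample labels. The 2 input libraries were not analysed here. The authors mapped reads with bowtie2, kept uniquely mapped fragments of mapping quality above 5, discarded PCR duplicates using Picard, and ran MACS2 on every library to call narrow peaks. The deposited lists give per peak a score (10 times the −log10 q-value), the fold of enrichment as a ratio to the control, and the p-value and q-value as −log10. The methods state a q-value of 0.01, but the lists reach 0.0499, and they were used as deposited. The labels name Sscrofa11.1, and peaks were read on that assembly with NCBI annotation release 106, on chromosomes 1 to 18 and X.

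A peak belonged to a TSS when its interval reached within 1 kb, and to a record or window when it overlapped it. Where several peaks qualified, the one of highest fold enrichment gave the value. Both replicate values or their mean ± SD are reported. Percentiles of fold enrichment and width are shares with lower values among protein-coding records with that mark at the TSS in both replicates. Shares given for numbers of peaks in the windows are over all protein-coding records. The deposited lists give no read depth, so that no counting interval was computed. CpG content, 31-base words, promoter letters and the CTCF motif were computed from the genome sequence, with motif scores searched within 100 bases of the summit. Assignment of states and the motif search were tested on simulated data. The simulated peaks lay well inside or far outside the 1 kb limit, so that calls close to the limit were not tested. Python 3.11.15, numpy 2.4.6 and pandas 2.3.3 were used.

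The members, the gene lists and the alternatives were chosen with earlier results of these data known. Named genes were the members, up to 4 genes per state from each list (by H3K4me3 fold enrichment, or alphabetically where there was none), adjacent genes, genes whose TSS lay at a peak in the window, and the nearest patterns, except some genes that are not reported here. Printed sequences were chosen after the values were seen. LIFR, NANOS3, COL6A1 and KRT14 were on the lists but had no record of that symbol. The alternatives were other TSS distances, the summit in place of the interval, any transcript start, stricter q-values, each replicate alone, peaks shared between replicates, a 50 kb window, a stricter motif threshold and a wider promoter window.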

Additional observations from a re-analysis of the deposited data

How the results depend on the processing

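Of 78 values under alternatives, 62 stayed within 1.5 times the reported count or value and 16 did not. The 1 active record became 0 when summits had to lie within 1 kb, because the H3K4me3 summit of KLF4 in replicate 2 is at 3283 bp (SALL4 and PRDM14, whose summits also lie farther out, then counted as silent), and ranged from 1 to 3 with each replicate alone. The 3 records with H3K4me3 only became 5 at a −log10 q of at least 5 and also 5 with peaks shared by the replicates at 50%, since SOX2 and TFCP2L1 then lost their H3K27ac peaks, and ranged from 3 to 5 with each replicate alone. The 2 mixed records became 0 under both of these, 4 at 5 kb (with POU5F1 and SALL4) and 1 at 500 bp. They were 0 to 0 with each replicate alone, where a record with H3K4me3 cannot be mixed by definition. The silent count was between 3 and 6 throughout, and POU5F1 left it at 5 kb and ESRRB with any transcript start. With any transcript start SALL4 also moved, from H3K4me3 only to mixed, which made 3 mixed records. Its start at 1871 bp has H3K27ac of 2.74 in replicate 1 within 1 kb. A 50 kb window gave 36 H3K4me3, 30 H3K27ac and 31.5 CTCF peaks in place of 60.5, 57.5 and 60.5, as a window of smaller size must. H3K27ac peaks in the records fell from 3.5 to 2 at a −log10 q of at least 5. The silent records of the 3 network lists numbered 20 of 54, and 11 at 5 kb. The silent share of protein-coding records was 27.5% at 1 kb, and that at 5 kb was not computed. No paired analysis was possible because no result comes from a test between groups. Weak H3K27ac peaks near the limit of calling, with fold enrichments under 4, decide the states of SOX2 and TFCP2L1, and the absence of a peak does not show that the mark is absent at this depth.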

Other observations

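Several H3K4me3 peaks near the silent or weakly marked members were at no annotated transcript start. Near NANOG on chromosome 5 these included summits at -59369 bp (24.5, and 12.3 in replicate 2), -50467 bp (18.7 and 10.3) and 25532 bp (11.96 and 8.34). The last 2 of them lay with H3K27ac, at 7.30 and 11.2 near -50098 bp and at 4.47 and 4.37 near 25004 bp. Near POU5F1, a peak of 26.4 and 17.5 at 33245 and 33136 bp was accompanied by H3K27ac of 4.45 in replicate 1 only. Near PRDM14, CTCF of 53.1 and 50.6 at -17224 and -17262 bp lay with H3K4me3 of 8.23 and 5.21.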
